A study of Homo sapiens with 2 samples.

Results

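Replication-dependent histone genes encode the core histones H2A, H2B, H3 and H4 and the linker histone H1 that package newly made DNA. The genes examined here were the rows of the deposited expression table whose description placed them in a histone gene cluster and did not call them pseudogenes, and 66 of 61541 genes met this rule. They were 6 H1, 16 H2A, 17 H2B, 13 H3 and 14 H4 genes. Most of these genes have no introns. Their mRNAs usually end in a conserved stem-loop, made by cleavage with the U7 small nuclear RNP and held by the stem-loop binding protein SLBP, and they usually carry no poly(A) tail, which almost all other mRNAs have. Transcription of these genes rises at the start of S phase through the coactivator NPAT, and the mRNAs are destroyed when DNA synthesis stops. Some of the genes can also give longer, polyadenylated transcripts in cells that no longer divide.

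RNA-seq was performed on Huh7 cells, a human hepatocellular carcinoma line, that received a negative control siRNA (Huh7-NC) or an siRNA against BRF2 (Huh7-si). BRF2 encodes a subunit of the transcription factor that recruits RNA polymerase III to a small set of promoters. Each condition had 1 library, so no difference below has a replicate check. The design text of the data record speaks of infection and the study's methods of transfection. Neither says which of the study's siRNAs or what time after delivery was used for sequencing.

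The estimated counts on genes came to 22852648 reads for Huh7-NC and 22089016 for Huh7-si. Where a pair of values follows, the Huh7-NC library is given first and the Huh7-si library second. The targeted gene, BRF2, was lower in the Huh7-si library, with 1281 and 364 reads (log2 fold change -1.77, 95% interval -1.94 to -1.60). All 16 hepatocyte markers examined had reads in the table, with ALB, the albumin gene, at 3957 and 4077 TPM. APOB, the main protein of VLDL, was the one called among them and rose from 20889 to 41399 reads. Its log2 fold change was 1.04, beside a median of 0.67 over all genes of like length, and 0.81 with TMM scaling, under a fold of 2. Of the immune markers, LYZ, the lysozyme gene, was at 438 and 433 TPM, CD68 had 235 and 244 reads, CD14 had 112 and 94, PTPRC had 5 and 1, and CD3E had none. Of 5 endothelial markers, PECAM1 had 60 and 63 reads, VWF and CDH5 at most 3 in a library, and KDR and TEK none. The 7 fibroblast markers summed to 47.5 and 106 CPM (reads scaled to the library's total). COL1A1 (log2 fold change 1.64), COL1A2 (1.24) and COL3A1 (1.26) were called higher, as were 10.4% of all genes with reads. Genes of like length had medians of 0.43, 0.42 and 0.42. PDGFRA (0.89) and PDGFRB (0.51), each beside 0.43 for like length, stayed under a fold of 2. LUM had 36 and 50 reads with an interval of -0.12 to 1.18, and DCN had no read. The part of the fibroblast markers in the histone values was not tested. In bulk RNA, fewer cells of a kind and less RNA in each cell cannot be told apart, and histone mRNA also depends on how many cells are in S phase.

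Of the 66 members, 55 lay on chromosome 6 in 3 groups and 11 on chromosome 1 in 1 group (GENCODE release 29, GRCh38). The first chromosome 6 group, of 34 members, spanned chr6:25726132-26285638 from H2AC1 to H4C8. The second held 5 members in chr6:27125897-27147515 and the third 16 members in chr6:27807444-27893843. The chromosome 1 group spanned chr1:149782689-149887916.

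To show what lies before the members that gave most of the signal, the 150 bases upstream of the start are given for the member with the most reads in each class (RefSeq, GRCh38.p14). Capitals mark the octamer ATTTGCAT, which POU2F1 (Oct-1) binds in H2B promoters, the CCAAT box, the TATA box TATAAA and the AC box AAACACA of H1 promoters, each on either strand. H1-2 was read from the minus strand of chr6:26056471-26056620, H2AC6 from the plus strand of chr6:26124022-26124171 and H2BC12 from the minus strand of chr6:27146859-27147008. H3C6 was read from the plus strand of chr6:26224985-26225134, before the downstream of its 2 RefSeq starts and within the GENCODE gene model, and H4C14 from the plus strand of chr1:149832507-149832656.
H1-2: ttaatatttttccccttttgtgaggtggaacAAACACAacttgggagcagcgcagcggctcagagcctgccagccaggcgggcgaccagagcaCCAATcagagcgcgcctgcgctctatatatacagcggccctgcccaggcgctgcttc
H2AC6: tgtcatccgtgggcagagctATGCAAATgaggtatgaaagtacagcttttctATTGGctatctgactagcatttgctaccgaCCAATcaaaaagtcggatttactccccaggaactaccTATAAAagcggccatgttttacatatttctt
H2BC12: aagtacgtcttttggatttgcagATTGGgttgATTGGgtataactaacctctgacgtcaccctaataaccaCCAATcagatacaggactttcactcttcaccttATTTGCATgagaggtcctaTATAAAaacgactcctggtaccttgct
H3C6: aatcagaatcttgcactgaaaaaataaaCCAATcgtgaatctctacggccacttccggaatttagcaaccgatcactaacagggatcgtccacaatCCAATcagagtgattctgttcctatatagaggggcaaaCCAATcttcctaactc
H4C14: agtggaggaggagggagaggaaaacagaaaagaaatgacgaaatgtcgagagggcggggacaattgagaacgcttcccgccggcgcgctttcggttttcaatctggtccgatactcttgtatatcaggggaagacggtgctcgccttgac

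The motifs followed the histone class. Promoter windows of 300 bases, from 250 before to 50 after the start, were matched for 61 members. The octamer was found in 14 of 17 H2B and 11 of 15 H2A members, in 1 of 11 H3 members and in no H1 or H4 member. The H3 member was H3C4, whose octamer (-119) and CCAAT boxes (-151, -86 and -68) had the same positions as those of H2AC7. Its window may therefore be the promoter of H2AC7, counted for both members. Over all 35116 promoter windows it was found in 1.77%, against 42.6% of the matched members. The CCAAT box was found in all H1, H2A, H2B and H3 members matched and in 3 of 12 H4 members, or 85.2% of members against 34.6% of all windows. The AC box was found in all 6 H1 members, and in 14.8% of members against 5.64% of all windows. All H1 members but H1-1 had it on the plus strand between -119 and -105, and H1-1 had only a minus-strand match at -183. In H3C14, H3C15 and H2AC20, the members of other classes with a match, it lay 31 to 35 bases after the start. The TATA box was found in 68.9% of members and in 11.5% of all windows, at any position in the window. For H2BC4, H2BC6, H2BC14, H2BC17, H2AC8 and H3C6 its only matches lay between -220 and -157. In H2B promoters the octamer began between positions -49 and -45 relative to the start in 8 members and between -149 and -104 in 6. In H2A promoters it began between -208 and -192 in 6 members and between -130 and -98 in 5, so the positions of the classes overlapped. Positions were read in the first RefSeq window of each member, which for H3C6 is that of the upstream start and not the stretch printed above. Head-to-head H2A and H2B members share these windows, so an octamer, CCAAT box or TATA box could be counted in both. A match is a run of letters and was not tested for binding.

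**Figure D1:**
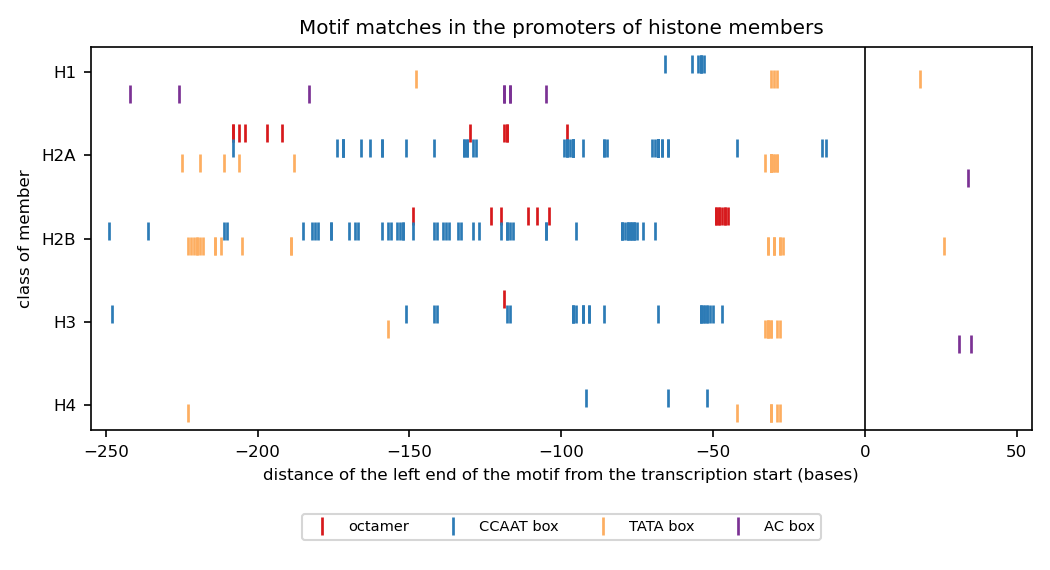
Positions of the 4 motifs in the RefSeq promoters of 61 members, by histone class (vertical axis) and distance from the transcription start in bases (horizontal axis). Each tick is 1 match on either strand: 8 octamer ticks of H2B promoters lie between -49 and -45 and 6 between -149 and -104, and H1 and H4 promoters have no octamer tick.

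Together the members took a small part of each library and a smaller part of Huh7-si than of Huh7-NC. Their reads came to 29678 and 22020, or 1299 and 997 CPM, which is 0.130% and 0.0997% of the reads. The log2 fold change of the sum was -0.38 (95% interval -0.41 to -0.36, p = 3.2e-196 by the exact binomial test on the reads). The test sets one library against the other and says nothing of the spread between cultures. By TPM, which divides by gene length, the sums were 3668 and 3260 and the log2 fold change was -0.17. Intervals cover counting error only.

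Very few members carried this signal. H2BC12, an H2B gene, held 54.6% and 49.7% of the members' reads, and the 6 members with the most reads held 90.1% and 86.8%. By TPM, 5 members were at 100 or more in each library, namely H2BC12, H1-2, H2AC18, H2AC6 and H2BC5. Under 10 TPM were 47 members in Huh7-NC and 48 in Huh7-si, 9 members without any read among them. The sum without H2BC12 had a log2 fold change of -0.23 (95% interval -0.27 to -0.20).

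**Figure D2:**
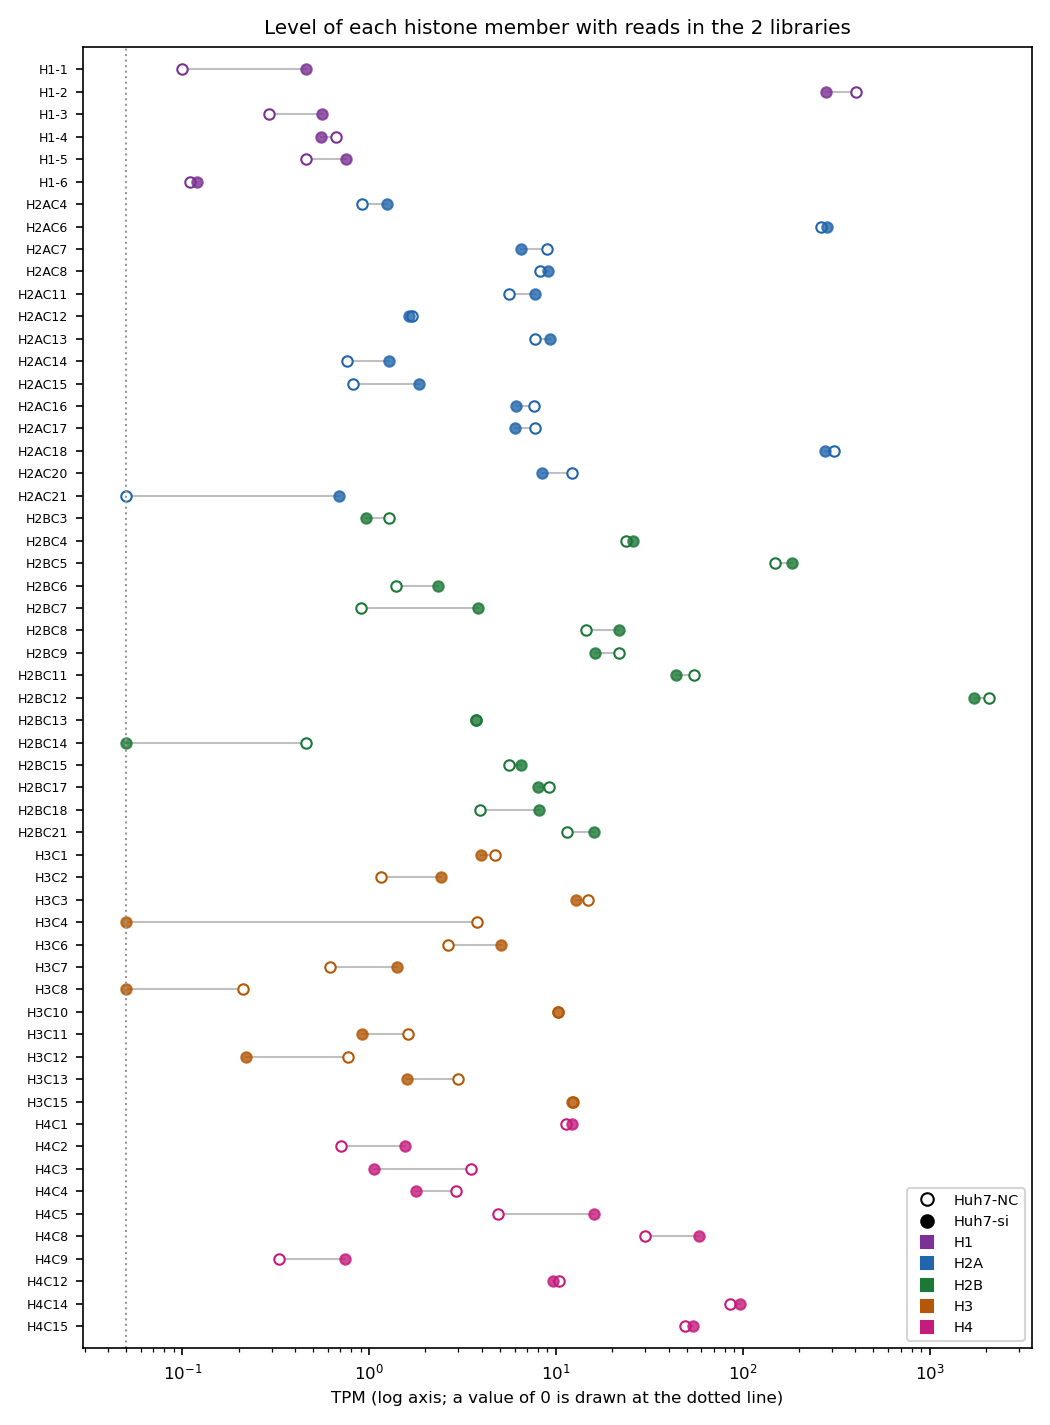
TPM (log axis) of the 57 members with reads, grouped by class; open circles are Huh7-NC and filled circles Huh7-si, and a value of 0 is drawn at the dotted line. H2BC12 stands highest at 2074 and 1719 TPM, and most members lie under 10 TPM in both libraries.

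Reads were found for 57 members, and calls were made on these. A gene was called where its fold reached 2 and its unadjusted exact binomial p was under 0.05. By this rule 3 members were called higher (H2BC7, H3C6 and H4C5), or 5.26% of the members with reads, against 10.4% of all 26379 genes with reads. One member, H3C4, was called lower, or 1.75% against 1.02% of all genes. The exact test of edgeR was also run with an assumed coefficient of variation of 0.4, which stands in for the unmeasured spread between cultures. It called 0 members higher and 1 lower, and the share of all genes that it called was not computed. Of the 46 members with at least 10 reads over both libraries, 7 had an interval above 0, or 15.2% against 41.2% of the 17955 genes with that many reads. An interval below 0 was found for 8 members, or 17.4% against 19.9% of those genes. For the other 31 members the interval included 0, so a difference was not detectable at this depth. The median log2 fold change of these members was -0.15, beside 0.21 over all genes with at least 10 reads.

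Histone genes are short, and the log2 fold change of all genes differed between length bins. The members' median length was 494.5 bases, against 2743 bases over genes with at least 10 reads, and 62 members were under 1000 bases. The median log2 fold change of all genes of like length ranged from -0.17 to 0.31 between the length bins of the members and was -0.05 for the middle member. The members' median relative to genes of like length was -0.10. The part of gene length in the members' values was not tested.

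**Figure D3:**
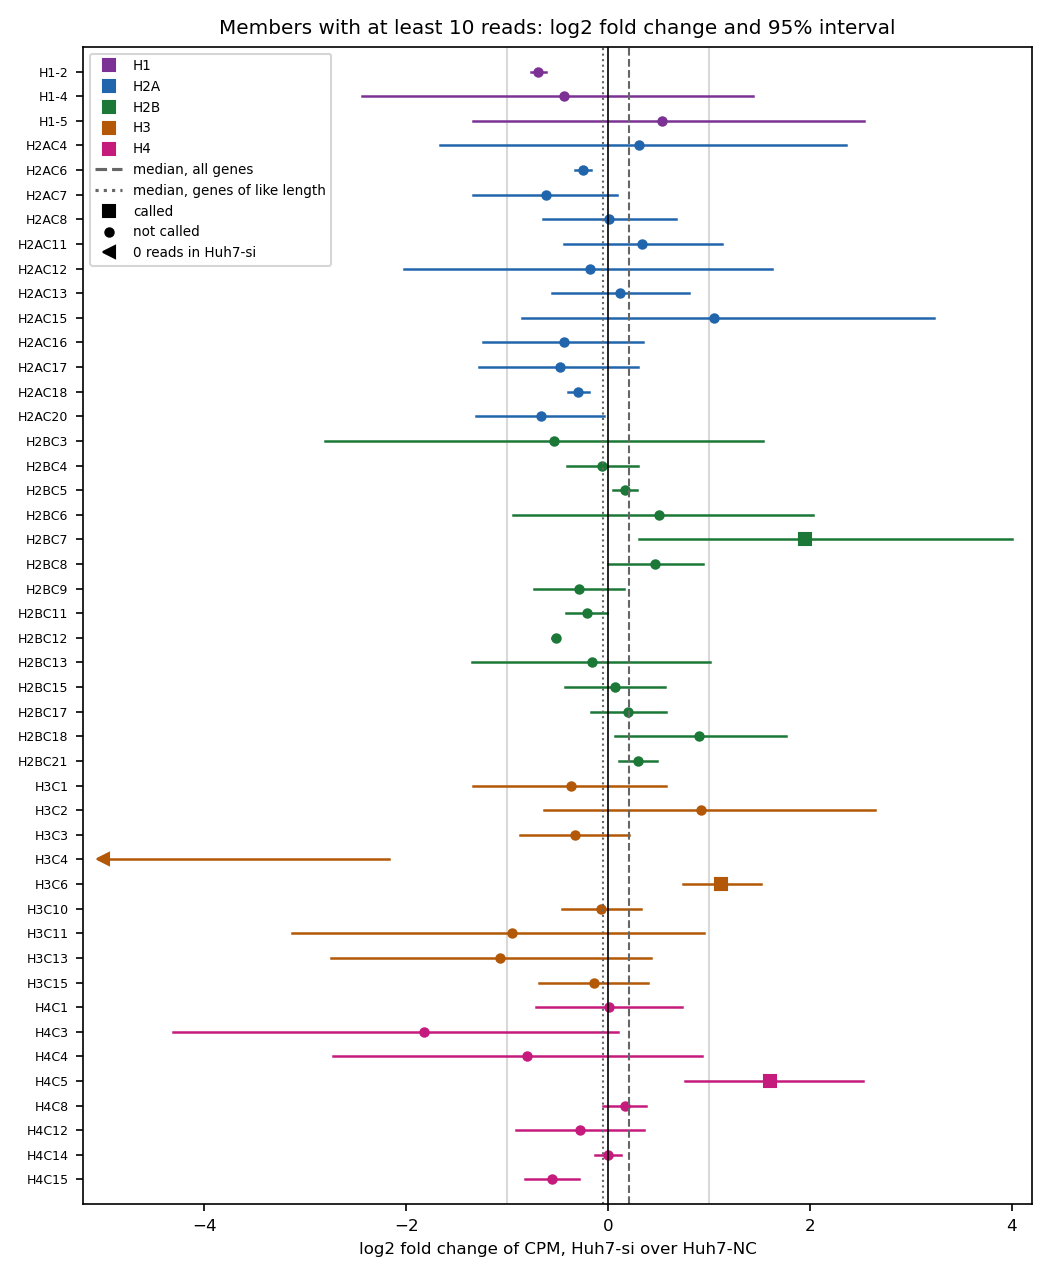
Log2 fold change of CPM (Huh7-si over Huh7-NC, horizontal axis) with 95% Clopper-Pearson intervals for the 46 members with at least 10 reads; the dashed line is the median of all genes (0.21), the dotted line the median of genes of like length (-0.05), and squares are called members. Intervals of 31 members cross 0, and the arrow marks H3C4, with 0 reads in Huh7-si.

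H1, the linker histone that binds DNA between nucleosomes, was represented almost by H1-2 alone. Huh7-NC gave 3828 reads of H1-2 and Huh7-si gave 2290, or 404 and 278 TPM. Its log2 fold change was -0.69 (95% interval -0.77 to -0.62, exact binomial p = 6.9e-76), short of a fold of 2. The other 5 H1 members together had 17 and 22 reads, and none was above 0.75 TPM in either library. The germ line member H1-6, the testis-specific H1t, had 1 read in each library. Summed over the class, H1 had 3845 and 2312 reads (log2 fold change -0.68, 95% interval -0.76 to -0.61), the lowest log2 fold change of the 5 classes.

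Among H2A genes, H2AC6 and H2AC18 led. H2AC6 had 2868 and 2338 reads, and its log2 fold change by CPM was -0.25 (95% interval -0.33 to -0.17). Its TPM went the other way, at 262 and 283. H2AC18 had 1728 and 1362 reads, or 309 and 276 TPM (log2 fold change -0.29, 95% interval -0.40 to -0.19). The coding sequence of H2AC18 is identical to that of H2AC19, for which the table lists 0 reads in both libraries, so the split of reads between this pair is uncertain. The other 12 H2A members with reads summed to 302 and 257 reads, and the highest of them was at 12.1 TPM. H2AC20, with 59 and 36 reads, was the one of these whose interval lay below 0. The H2A sum had a log2 fold change of -0.26 (95% interval -0.32 to -0.20) by CPM and of -0.03 by TPM.

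The H2B class held the most reads. H2BC12 had 16209 and 10945 reads, or 709 and 495 CPM (log2 fold change -0.52, 95% interval -0.55 to -0.48, exact binomial p = 4.2e-188). H2BC11 was lower by less, at 444 and 371 reads (log2 fold change -0.21, 95% interval -0.41 to -0.01). Both stayed under a fold of 2.

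H2BC5 and H2BC21 had higher CPM in Huh7-si than in Huh7-NC, and so did H2BC17 within counting error. H2BC5 had 1120 and 1220 reads (log2 fold change 0.17, 95% interval 0.05 to 0.29), and its log2 fold change turned to -0.05 with TMM scaling and -0.03 with DESeq2 size factors. H2BC21 had 443 and 526 reads (log2 fold change 0.30, 95% interval 0.11 to 0.48), and the value came to 0.07 with TMM scaling (exact binomial p = 0.44) and 0.09 with DESeq2 size factors (p = 0.351). H2BC17 had 116 and 129 reads, and its interval of -0.17 to 0.58 included 0. H2BC4, with 142 and 132 reads, also had an interval that included 0 (-0.41 to 0.30). H2BC7, a low member, was called higher, at 4 and 15 reads (log2 fold change 1.96, 95% interval 0.31 to 4.01, exact binomial p = 0.011). Of 17 H2B members, 5 had an interval above 0 and 2 below 0. The class sum was therefore set by H2BC12: it was 18764 and 13641 reads with it, a log2 fold change of -0.41, and 2555 and 2696 reads without it, a log2 fold change of 0.13 (95% interval 0.05 to 0.21) that turned to -0.10 with TMM scaling and -0.08 with DESeq2 size factors.

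H3 members were the lowest class by TPM, with sums of 55.9 in Huh7-NC and 50.8 in Huh7-si, and they included a call in each direction. H3C6 rose from 85 to 179 reads, or 2.65 to 5.09 TPM (log2 fold change 1.12, 95% interval 0.74 to 1.51, exact binomial p = 1.1e-09). With TMM scaling (0.90) or DESeq2 size factors (0.92) it was under a fold of 2. The table gives H3C6 a length of 2679 bases, against a median of 494.5 bases over members. H3C4 had 19 reads in the control library and none in the other. Set against the limit of 3 reads that a count of 0 allows, and taking the 19 reads as given, H3C4 was at least 6.12-fold lower in Huh7-si. The 95% interval, which also holds the counting error of the 19 reads, lay below a log2 fold change of -2.17 (exact binomial p = 4.0e-06). The gene model of H3C4 lies on the same strand as that of another gene, AL031777.3, which had 208 and 231 reads, and reads from the overlap cannot be assigned to either with certainty. H3C10 had 116 and 107 reads, and its interval of -0.46 to 0.32 included 0. The other 9 H3 members with reads had at most 14.8 TPM. Summed, the H3 class had 413 and 442 reads, with a log2 fold change of 0.15 whose interval of -0.05 to 0.34 included 0. The log2 fold change of the sum was -0.14 by TPM, -0.08 with TMM scaling and -0.06 with DESeq2 size factors. H3C6 alone gave 85 and 179 of the summed reads, and the median over the 9 H3 members with at least 10 reads was -0.33.

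Of the H4 members, H4C14 had the most reads, and its coding sequence is identical to that of H4C15. H4C14 had 984 and 951 reads, and its log2 fold change of 0.00 had an interval of -0.13 to 0.13. It was -0.22 with TMM scaling (exact binomial p = 0.000632), -0.21 with DESeq2 size factors and 0.16 by TPM. H4C15 had 287 and 189 reads (log2 fold change -0.55, 95% interval -0.83 to -0.28). Because reads can be split between the copies in more than one way, the pair was also summed: 1271 and 1140 reads gave a log2 fold change of -0.11 with an interval of -0.22 to 0.01. The value of the pair was -0.33 with TMM scaling, -0.31 with DESeq2 size factors and 0.15 by TPM. H4C5 was called higher, from 16 to 47 reads, or 4.90 to 15.9 TPM (log2 fold change 1.60, 95% interval 0.76 to 2.52, exact binomial p = 6.7e-05).

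H4C8 had 363 and 393 reads, with an interval of -0.05 to 0.37, but its deposited TPM was 29.8 and 58.1. The reads and the TPM of H4C8 therefore disagree on its size of change. No read was listed for H4C6, H4C7, H4C11 and H4C13, and H4C11 has the same coding sequence as H4C12 (50 and 40 reads). The H4 sum of 1758 and 1668 reads had a log2 fold change of -0.03 with an interval of -0.12 to 0.07, and 0.34 by TPM. It was -0.25 with TMM scaling and -0.23 with DESeq2 size factors, so its closeness to 0 depended on the scaling.

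The remaining members were low. The 29 members with at least 10 reads that are not named by the rule had at most 97 reads in a library and log2 fold changes from -1.83 (H4C3, 11 and 3 reads) to 1.05 (H2AC15, 4 and 8 reads). Of these, 26 had an interval that included 0, H2BC8 (68 and 91 reads) and H2BC18 (20 and 36 reads) had one above 0, and H2AC20 had one below 0. Another 11 members had 1 to 9 reads over both libraries and summed to 21 and 31 reads. The 9 members without reads were H2AC1, H2AC19, H2BC1, H2BC10, H3C14, H4C6, H4C7, H4C11 and H4C13, for which a count of 0 allows up to 3 reads, or 0.131 and 0.136 CPM. That limit does not hold for H2AC19, H3C14 and H4C11, whose reads may have been given to copies with identical coding sequence. H2AC1 and H2BC1 encode testis-specific histones, and H3C14 has the same coding sequence as H3C15 (65 and 57 reads). Over the 52 members under 100 reads in both libraries, the sums of 945 and 888 reads did not differ beyond counting error (log2 fold change -0.04, 95% interval -0.17 to 0.09) when scaled to library totals. The value was -0.27 with TMM scaling and -0.25 with DESeq2 size factors.

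Members that are known to give polyadenylated transcripts held most of the signal. These were H1-2, H2AC6, H2BC4, H2BC5, H2BC12 and H2BC21, listed from general knowledge, and they held 82.9% and 79.3% of the members' reads. Their sum was 24610 and 17451 reads (log2 fold change -0.45, 95% interval -0.47 to -0.42). The 60 other members summed to 5068 and 4569 reads (log2 fold change -0.10, 95% interval -0.16 to -0.04). The medians over members with at least 10 reads were alike, at -0.151 for the listed members and -0.149 for the others. Of the 6 listed members, 3 had an interval below 0 and 2 above 0. H2BC12 alone gave 16209 and 10945 of their reads, and the difference between the groups was not tested. Whether the libraries were made from poly(A) RNA is not given in the sources used here, and how far the levels reflect polyadenylated forms was not tested.

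A match to the histone stem-loop consensus was found in GENCODE release 29 transcripts of 28 of the 66 members, and 20 of them had a transcript that ran more than 100 bases past it. Many of the other gene models hold coding sequence only, H2BC12 with 381 bases among them, so a missing match says nothing of the mRNA. The 28 members held 6 distinct stem-loops. The commonest, found in 15 members, is shown for H2AC6, with the 4-member form of H2BC5 and the form found in H3C6 alone (stem-loop in capitals, 5 bases on either side).
H2AC6: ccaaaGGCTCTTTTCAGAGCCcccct
H2BC5: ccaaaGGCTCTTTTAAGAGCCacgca
H3C6: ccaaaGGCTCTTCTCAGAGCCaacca

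In H2AC6 the annotated transcript ran 1128 bases past the stem-loop, and in H3C6 it ran 1862 bases past it. The members with such a longer transcript summed to 5665 and 5255 reads, and those with a match but at most 100 bases after it to 2945 and 2680 reads. H2BC5, listed above among members with polyadenylated transcripts, gave 1120 and 1220 of the latter reads. Its other transcript, of 789 bases, held no match, so the 2 sums do not separate transcript forms.

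H2A and H2B genes often stand head to head and share one stretch of promoter DNA. Among members with a RefSeq promoter entry there were 10 such pairs, with starts 194 to 248 bases apart, and 9 of the 10 had reads. By GENCODE gene models, H2BC12 and H2AC12, which has no promoter entry, also stood head to head, 331 bases apart. H2BC12 was at 2074 and 1719 TPM and H2AC12 at 1.70 and 1.63 TPM (7 and 6 reads). Partners in the 9 pairs were not at equal levels either. H2AC6 was above H2BC4 by TPM 11.1-fold in Huh7-NC and 11.0-fold in Huh7-si, and H2BC11 was above H2AC11 9.77-fold and 5.64-fold. By TPM the H2B partner was higher in both libraries in 4 of the 9 pairs and the H2A partner in 4 pairs. In the remaining pair, H2AC20 and H2BC21 were at 12.1 and 11.4 TPM in Huh7-NC, and at 8.46 and 15.9 TPM in Huh7-si. Of the 8 pairs with at least 10 reads for each partner, 3 had log2 fold changes of the same sign. H2AC7 (46 and 29 reads) and H2BC7 (4 and 15 reads) had values of opposite direction, and H2BC7 was the called one of the pair. The difference between partners was not tested.

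**Figure D4:**
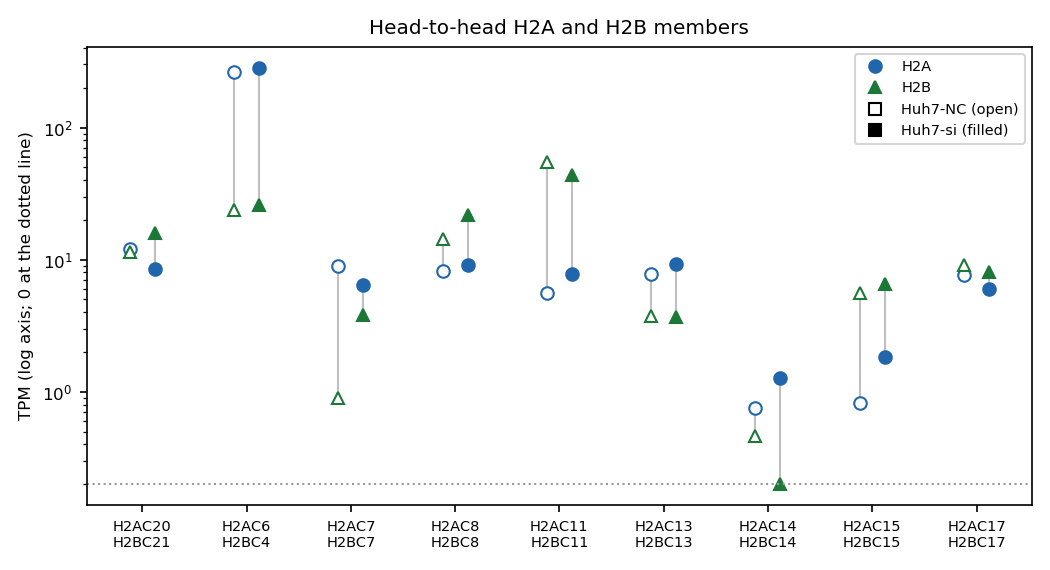
TPM (log axis) of the partners in the 9 head-to-head H2A and H2B pairs with reads and RefSeq promoter entries; circles are H2A, triangles H2B, open symbols Huh7-NC and filled symbols Huh7-si, with 0 at the dotted line. H2AC6 stands 11.1-fold and 11.0-fold above H2BC4, and H2BC11 stands above H2AC11 in both libraries.

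The genes that act on these mRNAs and proteins were examined as lists. Their intervals stand beside 41.2% above 0 and 19.9% below 0 over all genes with at least 10 reads. The 12 histone genes listed as replication-independent had no call, 3 intervals above 0 and 8 below 0. Their median log2 fold change was -0.31 beside -0.05 for genes of like length. Of these, H3-3B, which encodes the replacement histone H3.3, had the most reads, 10009 and 8284. H3-3B was at 588 and 615 TPM, above every H3 member.

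For histone mRNA 3′ processing and decay, 18 of 19 genes had reads and RNU7-1, the U7 RNA gene, was listed at 0. The median log2 fold change was 0.22 beside 0.31 for genes of like length, with 11 intervals above 0 and 3 below 0, and it came to -0.01 with TMM scaling. One gene was called, LSM11, a protein of the U7 particle, which rose from 55 to 107 reads (log2 fold change 1.01, 95% interval 0.53 to 1.51). The median of genes of like length was 0.43, and with TMM scaling LSM11 was at 0.78, under a fold of 2. LSM10, of the same list and named here after its values were seen, went the other way, at 752 and 443 reads. Its log2 fold change was -0.71 (95% interval -0.89 to -0.54), beside a median of -0.17 for genes of like length. UPF1, the helicase that starts histone mRNA decay, had the most reads, 6891 and 8072. SLBP, named here after its values were seen because it binds the stem-loop itself, had 2476 and 1740 reads. Its log2 fold change was -0.46 (95% interval -0.55 to -0.37), beside a median of -0.04 for genes of like length.

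Among 12 genes of histone gene transcription none was called, 4 intervals lay above 0 and 4 below 0, and the median of 0.11 stood beside 0.17 for genes of like length and turned to -0.12 with TMM scaling. E2F1, an S-phase transcription factor, had the most reads, 2135 and 1585. NPAT, also named after its values were seen, had 209 and 285 reads. Its log2 fold change was 0.50 (95% interval 0.23 to 0.76), beside a median of 0.43 for genes of like length.

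Of 22 histone chaperone genes, 14 had an interval below 0 and 6 above 0, with a median of -0.21 beside 0.22 for genes of like length. ATRX, which helps to deposit H3.3, rose from 620 to 1425 reads (log2 fold change 1.25, 95% interval 1.11 to 1.39) and was the one call of this list. Genes of like length to ATRX had a median of 0.67. NAP1L1, a chaperone of H2A and H2B, had the most reads, 11575 and 8141.

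Of 37 genes of S phase and DNA replication, 29 had an interval below 0 and 2 above 0, with a median of -0.32 beside 0.12 for genes of like length. MCM7, a subunit of the replicative helicase, had the most reads, 22704 and 17621. POLE, the catalytic subunit of DNA polymerase epsilon, was the one call and rose from 1975 to 4130 reads. Its log2 fold change was 1.11, beside 0.54 for genes of like length, and 0.89 with TMM scaling, under a fold of 2. The 16 mitosis genes had no call, 8 intervals below 0 and 6 above 0, and a median of -0.05 beside 0.21 for genes of like length. TPX2, a spindle assembly factor, had the most reads, 7755 and 6970. For comparison, the histone members had 8 intervals below 0 and 7 above 0 of 46. The difference between the histone members and these lists was not tested.

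**Figure D5:**
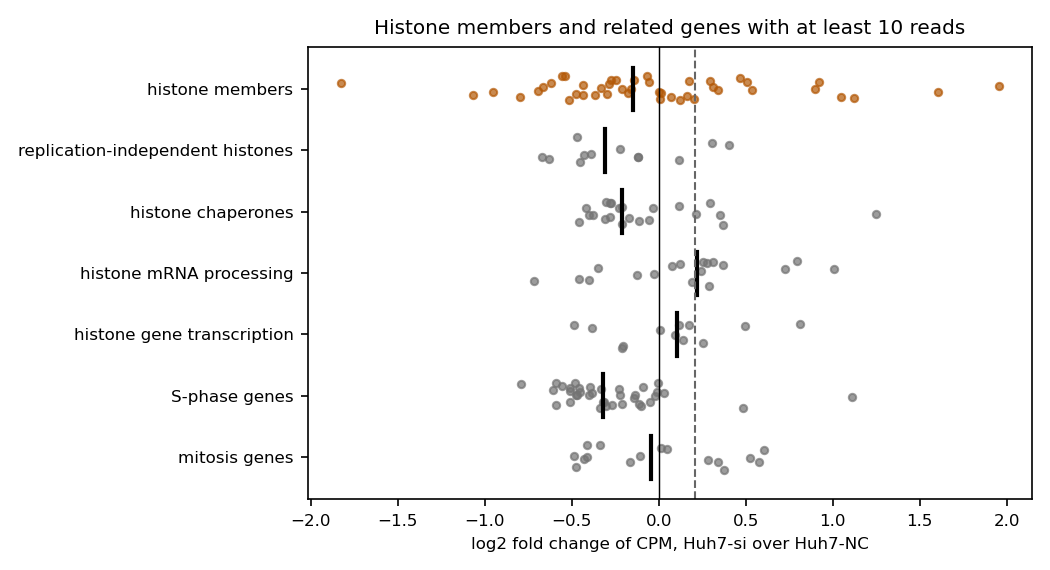
Log2 fold change of CPM (Huh7-si over Huh7-NC) of each gene with at least 10 reads in the histone members and in 6 related lists; black bars are list medians and the dashed line the median of all genes (0.21). The median is -0.15 for the histone members and -0.32 for the S-phase genes, and H3C4, at 0 reads in Huh7-si, is not drawn as a point.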

How the data were processed

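RNA was sequenced from 2 samples of Huh7 cells, 1 library each of Huh7-NC and Huh7-si, grouped by their labels. The authors deposited a table with an estimated count and a TPM value per gene and library. The submitters' processing notes name TopHat2 2.0.12, Bowtie2 2.0.6 and GRCh37, without roles. The counting tool, annotation, strandedness and RNA selection are not given in the sources used here, and 4 member identifiers are absent from GENCODE release 29. The table's fold change and p columns hold the authors' own comparison and were not used. One marker gene is not reported here.

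Estimated counts were rounded and scaled to the library totals (CPM). All genes were tested with a two-sided exact binomial test, with 95% Clopper-Pearson intervals on the fold change. Totals were 22852648 and 22089016 reads, at which 0 reads allow up to 3 (counting error only). Like-length medians came from 20 length bins. Coding sequences were compared in GENCODE transcripts, and promoters came from RefSeq GRCh38.p14.

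Named were BRF2, members with at least 100 reads in a library, called members, and in each other list the called genes and the gene with the most reads. Members and lists were chosen with earlier results of these data known. Alternatives were TMM (edgeR 4.0.16), DESeq2 1.42.0 size factors, TPM, count filters, pseudocounts, a fold of 1.5, Benjamini-Hochberg adjustment and edgeR's exact test with an assumed coefficient of variation of 0.4. The test was checked on simulated data. Python 3.11.15, NumPy 2.4.6, pandas 2.3.3, SciPy 1.17.1, matplotlib 3.10.9 and R 4.3.3 were used.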

Additional observations from a re-analysis of the deposited data

How the results depend on the processing

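With 1 library per condition, nothing separates the conditions from the cultures, and counting error is the only error measured. TMM shifted every gene's log2 fold change by -0.23 and DESeq2 size factors by -0.21, and the median over all genes was then -0.01 and 0.00. Members with an interval above and below 0 numbered 7 and 8 with library totals and 3 and 13 with either scaling, and higher and lower values 19 and 27, against 12 and 34. Over all genes with at least 10 reads, 41.2% and 19.9% of intervals lay above and below 0 with library totals. These shares were not computed for either scaling, which also moved all other genes down. Shares of all genes with higher or lower values were not computed. All genes called higher or lower were 6.91% and 2.16% with TMM and 7.11% and 2.06% with DESeq2. No paired analysis was possible because each condition has 1 library.

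Members called higher numbered 5 by TPM (fold of at least 2) and 0 with an assumed coefficient of variation of 0.4. Members called lower numbered 2 with TMM, DESeq2 size factors or TPM (H4C3 beside H3C4) and 3 at a fold of 1.5. They numbered 1 with that assumed coefficient of variation and 0 with 10 reads required in each library. Shares of all genes called were computed for library totals, TMM and DESeq2 size factors only. The members' median was -0.37 with TMM, -0.36 with DESeq2, -0.010 by TPM, -0.056 without a filter and with 0.5 reads added, -0.058 with 1 CPM added, -0.17 for members under 1000 bases and -0.10 relative to like length. The log2 fold change of the sum was -0.61 with TMM, -0.59 with DESeq2 size factors and -0.17 by TPM. With library totals it was -0.23 without H2BC12 and -0.10 without members of known poly(A) forms. H3C6 stayed higher but under a fold of 2, at 0.90 with TMM and 0.92 with DESeq2. Direction reversed by TPM for H2AC6 (0.11), H2BC4 (0.13), H2BC17 (-0.19), H4C14 (0.16) and H4C15 (0.14). It reversed with TMM and DESeq2 for H2BC5 (-0.052 and -0.035), H2BC17 (-0.022 and -0.0047) and H4C8 (-0.061 and -0.043). Apart from the constant shift of each scaling, the cause of these changes was not tested. Counts relative to like length, and the sum without members of known poly(A) forms, were added after seeing the data.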

Other observations

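The deposited read and TPM columns gave log2 fold changes of opposite sign for 5 of the 45 members with at least 10 reads and a finite value in both. They differed by more than 0.5 for 2 members, H4C8 (0.16 by CPM and 0.96 by TPM) and H4C15 (-0.55 and 0.14). Over all genes the TPM value exceeded the CPM value by a median of 0.18 on the log2 scale, and over these members by 0.13. Gene length as listed in the table is the same for both libraries, and why the columns differ was not tested.

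On chromosome 1, the 11 members summed to 3599 reads for Huh7-NC and 3166 for Huh7-si (log2 fold change -0.14, 95% interval -0.21 to -0.07). On chromosome 6, the 55 members summed to 26079 and 18854 reads (log2 fold change -0.42, 95% interval -0.45 to -0.39). H2BC12 alone gave 16209 and 10945 of the chromosome 6 reads. The medians over members with at least 10 reads had the other order, at -0.22 on chromosome 1 and -0.11 on chromosome 6. The difference between the chromosomes was not tested. Coding sequences of equal length were compared within a class for 14 H2A, 15 H2B, 13 H3 and 13 H4 members and for no H1 member. The identity to the nearest of these was between 83.3% (an H4 member) and 100%.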
